A study of Homo sapiens with 30 samples.

Results

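The mitochondrial genome of human cells gave 37 of the 54300 gene symbols in the count tables, taken as every symbol that starts with MT-. They are 13 mRNAs, 2 rRNAs and 22 tRNAs, and the rule reads only the symbols. Of these, 36 passed a filter on low counts (edgeR's filterByExpr, minimum count 10) and were tested. The tRNA MT-TW, with 0 to 5 counts per library, did not pass.

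Mitochondrial DNA is a small circle copied into RNA from both of its strands. On each strand one long precursor is made and then cut, mostly at the tRNAs that sit like punctuation between the larger genes. The rRNAs build the mitochondrial ribosome, the tRNAs feed it, and the mRNAs encode core subunits of respiratory complexes and of ATP synthase, whose other parts come from nuclear genes. T cell activation is known for a rise in respiration and in the synthesis of mitochondrial proteins. In the annotation, 28 of the 37 genes lie on the plus strand (12 mRNAs, both rRNAs and 14 tRNAs). The other 9 lie on the minus strand, namely MT-ND6 and the tRNAs MT-TQ, MT-TA, MT-TN, MT-TC, MT-TY, MT-TS1, MT-TE and MT-TP.

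RNA was sequenced from Jurkat E6-1, an established human line grown from T cell leukaemia, in 10 groups of 3 libraries. KO cells are labelled as lacking isoform 1 of SLAMF6, a SLAM family receptor of lymphocytes, and WT cells are labelled as wild type. Each genotype was sampled unstimulated (0 h) and at 6, 12, 24 and 36 h under PMA, which activates protein kinase C, together with ionomycin, which lets calcium into the cell. The time labels carry no unit and were read as hours from the treatment protocol. The series title speaks of an overexpressed isoform 3, whereas the design text and the labels name the isoform 1 KO, which is followed here. The labels do not say how many edited clones the KO stands for or whether the 3 libraries of a group came from separate cultures, so p-values measure the spread between libraries, which may be technical. Titles of WT libraries carry the letter A and those of KO libraries the letter B at 0 to 24 h, while at 36 h both carry C, and the labels do not say what the letters stand for. KO against WT at 36 h, and the changes from 0 h to 6, 12 and 24 h within a genotype, therefore lie within one letter. In comparisons of 36 h with 0 h the letter and the time cannot be told apart, nor can the letter and the genotype in KO against WT at 0 to 24 h. The labels name total RNA cleaned up on SPRI beads and a standard Illumina preparation, and give no step that selects polyadenylated RNA or removes rRNA.

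Total counts ran from 5.64M to 28.2M per library (median 20.5M), and KO 0 h replicate 2, WT 0 h replicate 2 and WT 36 h replicate 2 were the shallowest. KO 6 h replicate 2, KO 12 h replicate 1, KO 24 h replicate 3 and WT 24 h replicate 3 stood further from the other libraries of their groups than the rest did. All 9 T cell markers had a median of at least 1 CPM (counts scaled to a common library size), with a summed level of 3274 to 5832 CPM. Summed markers of monocytes (0.771 to 4.62 CPM), B cells (10.3 to 33.5 CPM), adherent lines (0.301 to 6.45 CPM) and erythroid cells (0 to 0.673 CPM) were low throughout. SLAMF6 counts sum all isoforms of the gene, so they check nothing about the loss of isoform 1. They gave 18.2, 21.0 and 18.6 CPM in unstimulated KO libraries, against 19.0, 25.1 and 19.4 CPM in unstimulated WT libraries.

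A group of 6 tRNAs carries the results on strands described further on, 3 from the minus strand and 3 from the plus strand. Their genes are shown from the reference mitochondrial genome with GENCODE 29 gene positions on GRCh38, 5′ to 3′ on the coding strand, with the anticodon in capitals. MT-TN (asparagine, chrM:5657-5729), MT-TC (cysteine, chrM:5761-5826) and MT-TY (tyrosine, chrM:5826-5891) are on the minus strand and lie close together. MT-TM (methionine, chrM:4402-4469), MT-TG (glycine, chrM:9991-10058) and MT-TT (threonine, chrM:15888-15953) are on the plus strand.
MT-TN: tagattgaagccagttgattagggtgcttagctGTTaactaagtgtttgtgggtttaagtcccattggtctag
MT-TC: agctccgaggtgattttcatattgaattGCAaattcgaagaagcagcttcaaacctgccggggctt
MT-TY: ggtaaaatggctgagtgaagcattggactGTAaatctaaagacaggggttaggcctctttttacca
MT-TM: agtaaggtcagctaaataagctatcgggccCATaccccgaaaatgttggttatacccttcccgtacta
MT-TG: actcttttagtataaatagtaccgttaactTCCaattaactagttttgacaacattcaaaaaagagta
MT-TT: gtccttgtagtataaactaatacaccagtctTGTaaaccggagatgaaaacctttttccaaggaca

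Mitochondrial transcripts took 4.49 to 9.35% of all counts (median 7.26% over the 30 libraries). The rRNAs held 3.0 to 7.43%, the mRNAs 1.46 to 1.96% and the tRNAs 0.00279 to 0.00468%. MT-RNR2, the rRNA of the large mitoribosomal subunit, was the most counted of all symbols in each of the 30 libraries and held 63.2 to 76.9% of mitochondrial counts. Per length, MT-RNR2 also stood highest, with a median of 34653 CPM per kilobase over the 10 group means. MT-ND4L (4686), MT-CO2 (4266) and MT-RNR1 (3766) followed, then MT-CO1 (2060), MT-CYB (1974), MT-ND4 (1711), MT-ND1 (1007), MT-CO3 (993) and MT-ATP6 (925). MT-ND2 (717), MT-ND3 (547), MT-ND5 (509), MT-ATP8 (462) and the minus-strand MT-ND6 (153 CPM per kilobase) closed the order of levels per length. Many neighbours in that order had overlapping ranges over the groups, for example 872 to 1514 CPM per kilobase for MT-ND1 and 819 to 1225 for MT-CO3.

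MT-ND4L and MT-ND4 overlap by 7 bases and MT-ATP8 and MT-ATP6 by 46 bases, and each pair is carried on a shared mRNA. The level per length of MT-ND4L was 2.13 to 4.19 times that of MT-ND4, and that of MT-ATP8 was 0.408 to 0.580 times that of MT-ATP6. The first ratio was above 1 and the second below 1 in all 30 libraries. Reads that cover both genes of a pair can be split by the counting, whose rule for overlaps was not given in the sources used here.

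The share of mitochondrial transcripts changed order between the genotypes along the time course, and the group means lay furthest apart at 36 h. In KO libraries it was 4.49, 5.59 and 4.63% at 36 h and 7.85, 7.19 and 7.74% at 0 h. For WT libraries the share was 8.10, 9.35 and 9.08% at 36 h and 6.02, 5.96 and 5.97% at 0 h. The KO libraries were thus all above the WT libraries at rest and all below them at 36 h. Group means in KO cells were 7.59, 6.95, 7.28, 6.94 and 4.90% at 0, 6, 12, 24 and 36 h (SD 0.351, 1.16, 0.880, 0.505 and 0.598, n = 3 each). Those in WT cells were 5.98, 7.29, 7.94, 8.59 and 8.84% (SD 0.0295, 0.563, 0.554, 0.648 and 0.660). Genotypes overlapped at 6 and 12 h, whereas at 24 h the KO libraries (7.33, 7.11 and 6.37%) all lay below the WT libraries (8.30, 8.13 and 9.33%). The comparisons of 36 h with 0 h cross the title letters, whereas the changes up to 24 h and the KO and WT libraries at 36 h do not. These are shares of counts, so less mitochondrial RNA and more of other RNA cannot be told apart, and the same holds for the CPM below. In these bulk samples, a change in some cells and a change in all cells cannot be told apart either.

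**Figure D1:**
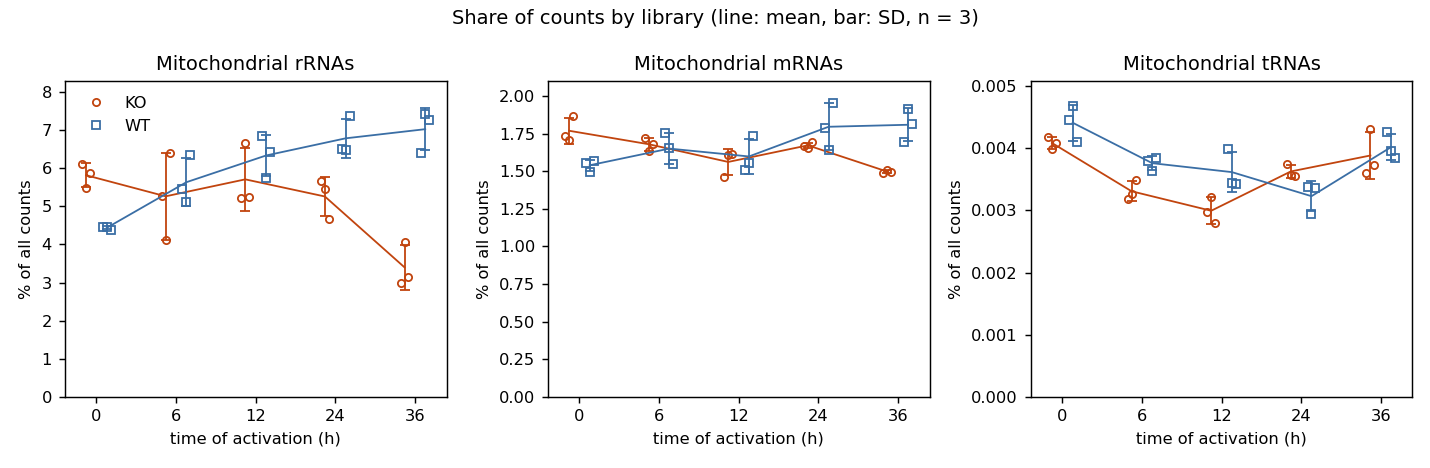
Share of all counts (%) held by mitochondrial rRNAs, mRNAs and tRNAs, by time of activation (h), in KO (circles) and WT (squares) libraries; points are libraries, lines join group means and bars are SD (n = 3). The rRNA panel shows KO libraries at 3.0 to 4.07% and WT libraries at 6.39 to 7.43% at 36 h, while the mRNA panel stays between 1.46 and 1.96%.

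The rRNAs held most of that separation, with means at 36 h of 3.40 ± 0.586% in KO cells and 7.03 ± 0.556% in WT cells (SD, n = 3 each). By library they held 3.0, 4.07 and 3.13% of counts in KO libraries, against 6.39, 7.43 and 7.26% in WT libraries. The mRNAs held 1.49, 1.51 and 1.49% in KO libraries and 1.70, 1.91 and 1.81% in WT libraries at the same time. Both classes were lower in every KO library, the rRNAs by the larger margin. The ratio of rRNA to mRNA counts was 2.01, 2.70 and 2.10 in KO libraries and 3.77, 3.88 and 4.0 in WT libraries at 36 h. At 0 h it averaged 3.29 in KO cells and 2.88 in WT cells. MALAT1, a nuclear noncoding RNA, lay higher in all KO than in all WT libraries at 36 h, with 0.509 ± 0.0441% of counts in KO cells and 0.392 ± 0.0555% in WT cells (SD, n = 3 each). At 0 h it held 0.245 ± 0.0391% in KO cells and 0.193 ± 0.0312% in WT cells. Its part in the mitochondrial shares was not tested.

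MT-RNR2 (chrM:1671-3229, plus strand) fell in KO cells and rose in WT cells over the time course. In KO libraries its level was 28284, 36980 and 30235 CPM at 36 h and 58269, 51115 and 57274 CPM at 0 h. The WT libraries had 59995, 64650 and 66855 CPM at 36 h and 42910, 42720 and 42363 CPM at 0 h. Neither genotype's libraries overlapped between the times. CPM here are scaled with TMM factors, edgeR's correction for library composition. The log2 fold change of 36 h over 0 h was -0.80 (SE 0.121, adjusted p = 1.65e-06) in KO cells and 0.58 (SE 0.121, adjusted p = 0.000188) in WT cells, by edgeR's quasi-likelihood test with Benjamini-Hochberg adjustment over 21554 symbols, as in every test that follows. At 36 h MT-RNR2 was lower in KO than in WT cells by a log2 of -1.0 (SE 0.122, adjusted p = 3.40e-07), that is a mean of 31833 CPM in KO cells and 63833 CPM in WT cells.

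At the times between, MT-RNR2 averaged 50782, 54805 and 48612 CPM in KO cells at 6, 12 and 24 h, with no call against 0 h. In WT cells it averaged 53242, 57914 and 63627 CPM, and it was called at 12 h (log2 0.44, adjusted p = 0.00496) and at 24 h (0.58, adjusted p = 0.000241). The WT 12 h call ended without WT 12 h replicate 1 (adjusted p = 0.0707). Between the genotypes at 24 h it was lower in KO cells (log2 -0.39, SE 0.121, adjusted p = 0.0350), but that call ended without KO 24 h replicate 1, 2 or 3 or WT 24 h replicate 3 (adjusted p = 0.0511 to 0.255). The unstimulated difference, higher in KO cells without overlap, missed the threshold (log2 0.38, adjusted p = 0.0535).

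MT-RNR1 (chrM:648-1601, plus strand), the rRNA of the small subunit, fell in KO cells as well. It had 1572, 2291 and 1621 CPM in KO libraries at 36 h and 4497, 3289.8 and 4465 CPM at 0 h. The WT libraries had 3264, 3596 and 3920 CPM at 36 h and 2982, 2719 and 3107 CPM at 0 h, so that the KO groups did not overlap between the times and the WT groups did not either. Its log2 fold change at 36 h over 0 h was -1.16 (SE 0.172, adjusted p = 1.28e-06) in KO cells and 0.29 (adjusted p = 0.185) in WT cells. At 36 h it was lower in KO than in WT cells (log2 -0.97, SE 0.172, adjusted p = 0.000119), with no overlap between the libraries. At 24 h it was called lower in KO cells (-0.43, adjusted p = 0.0483, groups overlapping) and higher in WT cells (0.49, adjusted p = 0.0225). The 24 h call in KO cells ended without KO 0 h replicate 1 or 3 or KO 24 h replicate 1 or 3 (adjusted p = 0.0731 to 0.280), and that in WT cells without WT 0 h replicate 1 or 2 or WT 24 h replicate 3 (adjusted p = 0.0565 to 0.194). Per length, MT-RNR2 stood 7.85 to 11.4 times above MT-RNR1 over the 30 libraries, and the ratio averaged 10.8 in KO cells and 10.9 in WT cells at 36 h. These are ratios of counts, and the part of the library preparation in them was not tested.

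The pair of rRNAs fell together in KO cells at 36 h and no library left out, nor any other processing tried, ended those calls or the 36 h difference between genotypes. A joint test asked whether a gene's changes from 0 h differ between the genotypes at any of the 4 later times. It called both rRNAs (adjusted p = 1.35e-05 for MT-RNR2 and 0.00106 for MT-RNR1). It called 9 of the 36 tested members, against 9.84% of all tested symbols. With the 36 h libraries left out, which keeps each genotype's changes within one title letter, the test over 6, 12 and 24 h called 0 of the 36 by edgeR, and 8 had an unadjusted p under 0.05. MT-RNR2 then had an adjusted p of 0.0632 and MT-RNR1 of 0.129. This alternative was chosen after seeing the data. The share of all tested symbols that it called is not given here, so the 0 is not read as a result about the members.

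**Figure D2:**
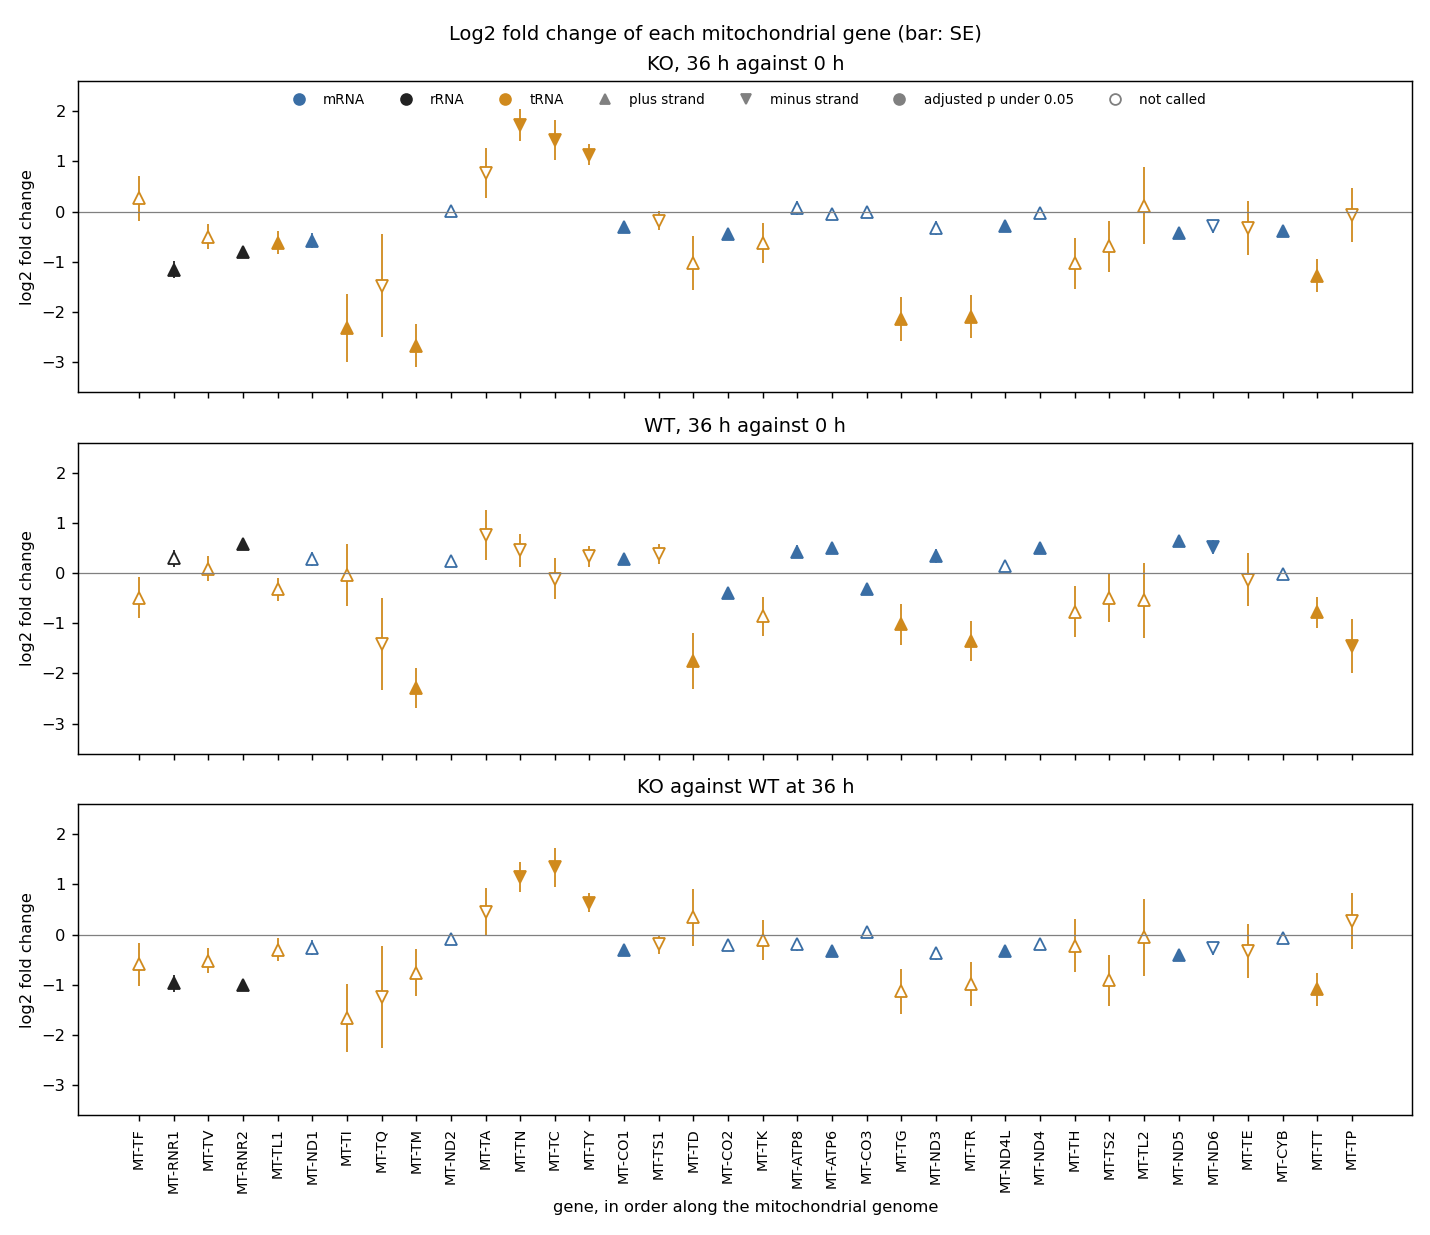
Log2 fold change of the 36 tested genes in their order along the mitochondrial genome, for KO cells at 36 h against 0 h, WT cells at 36 h against 0 h, and KO against WT cells at 36 h. Upward triangles are plus-strand and downward triangles minus-strand genes, colour marks the class, filled symbols are called at an adjusted p under 0.05, and bars are SE; MT-RNR2 stands at -0.80, 0.58 and -1.0 in the 3 panels.

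Over the 36 tested members, 3 were called higher and 14 lower in KO cells at 36 h against 0 h, where 36.7% of all tested symbols were called (18.6% higher and 18.0% lower). In WT cells 8 were called higher and 8 lower, against 39.1% of all tested symbols (20.2% higher and 19.0% lower). At earlier times KO cells had 8, 9 and 7 members called at 6, 12 and 24 h, all lower. All tested symbols called in those comparisons were 27.2, 27.8 and 32.8% (13.2, 13.7 and 16.7% lower, and 14.0, 14.1 and 16.1% higher). WT cells had 2 higher and 2 lower at 6 h (22.4% of all tested symbols, 11.8% higher and 10.5% lower), 2 higher and 5 lower at 12 h (30.3%, 14.8% higher and 15.6% lower), and 7 higher and 4 lower at 24 h (34.3%, 17.3% higher and 17.0% lower). The share of members called exceeded that over all symbols at 36 h, with 17 of 36 in KO cells and 16 of 36 in WT cells, and lay below it at the earlier times. Of the 13 mRNAs, 0 were called higher and 6 lower in KO cells at 36 h, whereas 7 were called higher and 2 lower in WT cells. The test of the difference between these time courses is the joint one given above.

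Between the genotypes, 5 members were higher and 0 lower in unstimulated KO cells than in WT cells, where 6.07% of all tested symbols were called (2.96% higher and 3.11% lower). At 36 h 3 were higher and 7 lower in KO cells, against 13.5% of all tested symbols (6.95% higher and 6.52% lower). In between there were 1 higher and 1 lower at 6 h, where 9.97% of all tested symbols were called (5.21% higher and 4.76% lower). At 12 h there was 1 higher (11.6% of all, 6.07% higher and 5.52% lower) and at 24 h there were 2 lower (9.73% of all, 4.97% higher and 4.76% lower). Averaged over the 5 times, 2 were higher and 9 lower (30.6% of all, 15.3% in each direction). The higher ones were MT-CYB (log2 0.22) and MT-ND5 (0.13), and the lower ones included MT-RNR2 (-0.23) and MT-RNR1 (-0.21), whose averaged calls ended in fits of the 0 to 24 h libraries alone. The averaged MT-ND5 call ended with DESeq2 (adjusted p = 0.0979). With no filter on low counts, MT-RNR2, MT-RNR1 and MT-ND5 kept their calls at 36 h and the other 7 lost theirs (3 members called, against 10). Median log2 fold changes of KO over WT at 36 h were -0.26 for the 13 mRNAs, -0.59 for the 13 tested plus-strand tRNAs and 0.36 for the 8 minus-strand tRNAs, against -0.00208 for all tested symbols.

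Complex I, the NADH dehydrogenase, draws 7 of its subunits from the mitochondrial genome. MT-ND5 (chrM:12337-14148, plus strand) encodes one of its proton-pumping subunits. Its level in KO libraries was 1230.2, 1089.5 and 1421 CPM at 0 h, and its means were 1247, 916, 909, 1119.6 and 928 CPM at 0, 6, 12, 24 and 36 h. The WT level was 784, 771 and 813 CPM at 0 h, and its means were 789, 777, 820, 1111 and 1227 CPM. KO libraries lay above all WT libraries at 0 h, and below all of them at 36 h (922, 962 and 900.4 CPM, against 1099, 1249 and 1332 CPM). The log2 fold change of KO over WT was 0.66 at 0 h (SE 0.103, adjusted p = 5.76e-05) and -0.40 at 36 h (SE 0.103, adjusted p = 0.00657). The joint test gave an adjusted p of 0.000100, and 0.0625 with the 36 h libraries left out.

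Within KO cells MT-ND5 fell at 6 h (log2 -0.45), 12 h (-0.46) and 36 h (-0.43, adjusted p = 0.00108), and within WT cells it rose at 24 h (0.49) and 36 h (0.64, adjusted p = 5.17e-06). The 36 h call in KO cells ended without KO 0 h replicate 3 (adjusted p = 0.0514), and the 36 h difference between genotypes ended without WT 36 h replicate 3 (adjusted p = 0.0609). Those at 0 h and in the joint test held without each library.

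MT-ND1 (chrM:3307-4262, plus strand) encodes the subunit next to the quinone site of complex I. It had 1279, 1497 and 1565 CPM in KO libraries at 0 h, against 875, 1125 and 870.0 CPM in WT libraries at 0 h. KO means at 6, 12, 24 and 36 h were 951, 833, 1184 and 968 CPM, and WT means were 857, 885, 1136 and 1161 CPM. The resting libraries did not overlap between the genotypes (log2 0.60, SE 0.146, adjusted p = 0.00961). In KO cells MT-ND1 fell at 6 h (log2 -0.61), 12 h (-0.80) and 36 h (-0.58, adjusted p = 0.00168), calls that held without each library. In WT cells its 36 h fold change was 0.28 (adjusted p = 0.132). The difference at rest ended without KO 0 h replicate 3 or WT 0 h replicate 1 or 3 (adjusted p = 0.0502 to 0.0790).

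MT-ND2, another membrane subunit of complex I, fell for a time in KO cells. It averaged 784, 543, 515, 782 and 788 CPM in KO cells at 0, 6, 12, 24 and 36 h, and 714, 624, 619, 781 and 841 CPM in WT cells. The KO changes were called at 6 h (log2 -0.53) and 12 h (-0.61), and those at 24 h (-0.01) and 36 h (0.01) were near 0. The KO calls at 6 and 12 h held without each library.

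MT-ND4 and MT-ND6 rose in WT cells. MT-ND4 had 2411, 2338 and 2230.1 CPM in KO libraries at 36 h and 2348, 2212 and 2610 CPM at 0 h, so those libraries overlapped (log2 -0.04, adjusted p = 0.815). In WT libraries it had 2484, 2799 and 2712 CPM at 36 h, all above the 1955, 1699 and 2022 CPM at 0 h (log2 0.49, adjusted p = 0.000197). MT-ND6, on the minus strand, averaged 70.8 CPM in KO cells at 36 h and 86.2 CPM at 0 h (log2 -0.30, adjusted p = 0.0836). In WT cells it averaged 85.5 CPM at 36 h and 59.2 CPM at 0 h (log2 0.52, adjusted p = 0.00235). MT-ND3 rose in WT cells at 36 h (log2 0.33, adjusted p = 0.0497), a call that ended without WT 0 h replicate 2 or 3 or WT 36 h replicate 2 or 3 (adjusted p = 0.0819 to 0.220). In WT cells at 24 h MT-ND6 (log2 0.71) and MT-ND4 (0.59) were already higher than at 0 h, calls that held without each library.

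At rest MT-ND6 (log2 0.54, adjusted p = 0.0119, groups overlapping) and MT-ND4 (0.34, adjusted p = 0.0440) were called higher in KO than in WT cells. The MT-ND6 call ended without KO 0 h replicate 1 or 3 or WT 0 h replicate 2 (adjusted p = 0.142 to 0.153). The MT-ND4 call ended without KO 0 h replicate 1 or 3 or any WT 0 h replicate (adjusted p = 0.0520 to 0.314). It also ended with DESeq2 (0.0648), with library sizes free of mitochondrial symbols (0.105) and in the fit of 0 to 24 h libraries without a block (0.138). MT-ND4L, a small membrane subunit, was called lower in KO than in WT cells at 36 h (log2 -0.33, adjusted p = 0.0244), and lower in KO cells at 36 h than at 0 h (-0.29, adjusted p = 0.0256, groups overlapping). The first of these ended without KO 36 h replicate 1 or 2 or WT 36 h replicate 1 or 2 (adjusted p = 0.0684 to 0.165), and the second without KO 0 h replicate 2 or 3 or KO 36 h replicate 1 or 2 (adjusted p = 0.0527 to 0.233).

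**Figure D3:**
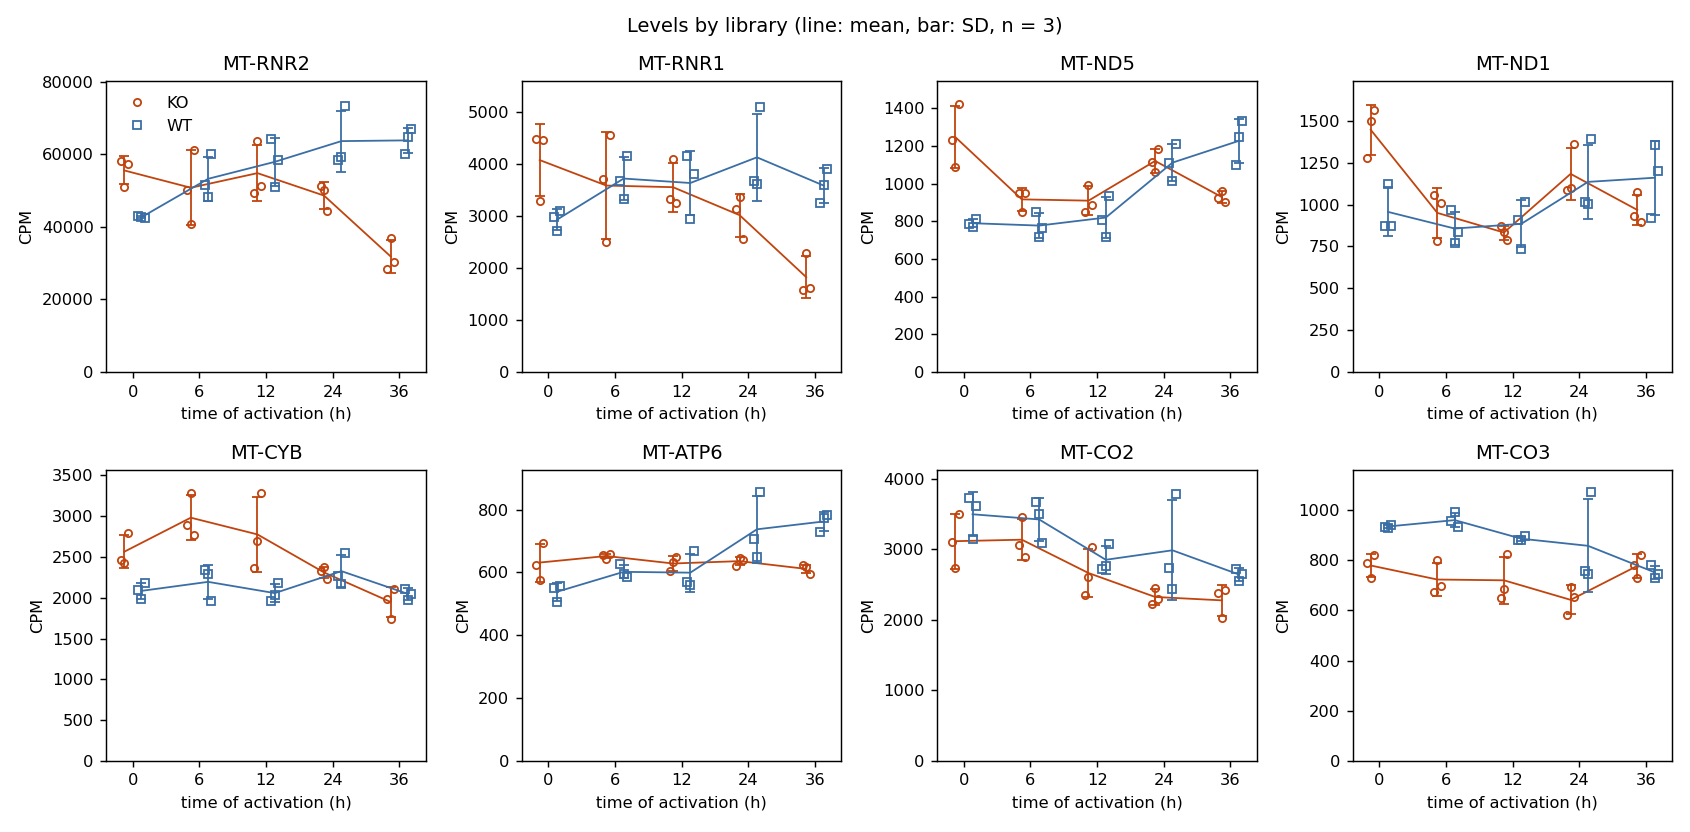
Levels (CPM) of 2 rRNAs and 6 mRNAs by time of activation (h) in KO (circles) and WT (squares) libraries; lines join group means and bars are SD (n = 3). MT-ND5 lies higher in KO libraries at 0 h and higher in WT libraries at 36 h, and MT-CYB lies higher in KO libraries at 6 and 12 h.

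MT-CYB (chrM:14747-15887, plus strand) encodes cytochrome b, the mitochondrially made subunit of complex III. In KO libraries it had 2887, 3291 and 2768 CPM at 6 h and 2361, 2691 and 3279 CPM at 12 h. WT libraries had 2342, 2287 and 1956 CPM at 6 h and 1956, 2032 and 2182 CPM at 12 h. No library overlapped between the genotypes at either time. The log2 fold change of KO over WT was 0.44 at 6 h (SE 0.101, adjusted p = 0.00322) and 0.43 at 12 h (SE 0.101, adjusted p = 0.00384). At 24 h it was -0.01 and at 36 h -0.07. As a share of mitochondrial mRNA counts, MT-CYB averaged 14.1, 17.2, 17.3, 14.1 and 13.1% in KO cells at 0, 6, 12, 24 and 36 h, and 13.2, 13.1, 13.3, 13.1 and 11.8% in WT cells. In KO cells it was lower at 36 h than at 0 h (1948 and 2564 CPM, log2 -0.40, adjusted p = 0.00190). The 12 h difference ended without KO 12 h replicate 3 (adjusted p = 0.0623), and that at 6 h held without each library.

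Complex IV, cytochrome c oxidase, takes its 3 core subunits from MT-CO1, MT-CO2 and MT-CO3, and these did not move alike. MT-CO1 had 2512, 2784 and 2702 CPM in KO libraries at 36 h, all below the 3293, 3183 and 3398 CPM in WT libraries at 36 h. It fell in KO cells (log2 -0.30 at 36 h over 0 h, adjusted p = 0.00515) and rose in WT cells (0.29, adjusted p = 0.00689). Between the genotypes it was called higher in KO cells at rest (0.29, adjusted p = 0.0398) and lower at 36 h (-0.30, adjusted p = 0.0141). The KO call ended without KO 0 h replicate 1 or 3 (adjusted p = 0.0580 to 0.104) and the 36 h difference without KO 36 h replicate 1 or 3 or WT 36 h replicate 3 (adjusted p = 0.0567 to 0.103). The difference at rest ended without KO 0 h replicate 1 or 3 or any WT 0 h replicate (adjusted p = 0.0621 to 0.308). It also ended with no filter on low counts (0.0984), with library sizes free of mitochondrial symbols (0.107), and in the fits of 0 to 24 h libraries with a replicate block (0.0670) and without one (0.139).

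MT-CO2 fell in both genotypes by 36 h. It had 2381, 2027 and 2417 CPM in KO libraries at 36 h and 3109, 2729 and 3504 CPM at 0 h (log2 -0.45, adjusted p = 0.00287). In WT libraries it had 2726, 2547 and 2650.1 CPM at 36 h and 3732, 3146 and 3610 CPM at 0 h (log2 -0.40, adjusted p = 0.00713). In KO cells it was also lower at 24 h (-0.42), and averaged over the 5 times it was lower in KO than in WT cells (-0.19, SE 0.0538, adjusted p = 0.00591). The 24 and 36 h calls in KO cells ended without KO 0 h replicate 3 (adjusted p = 0.127 and 0.0637), and the WT call ended without WT 0 h replicate 1 or WT 36 h replicate 2 (adjusted p = 0.0517 to 0.0700).

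MT-CO3 was lower in KO cells over most of the course. Its KO means were 779, 723, 720.0, 642 and 778 CPM at 0, 6, 12, 24 and 36 h, and its WT means were 935, 960.2, 886, 858 and 752 CPM. The log2 fold change of KO over WT was -0.26, -0.41, -0.30, -0.42 and 0.05 at these times, called at 6 h (adjusted p = 0.0106) and 24 h (adjusted p = 0.00925). Averaged over the times it was -0.27 (SE 0.0478, adjusted p = 4.56e-05), a call that held without each library. The 6 h call ended without KO 6 h replicate 1 or 3 or WT 6 h replicate 2 (adjusted p = 0.0518 to 0.0761), and the 24 h call without KO 24 h replicate 1 or WT 24 h replicate 3 (adjusted p = 0.0739 to 0.220). MT-CO3 was also called lower at 36 h than at 0 h in WT cells (log2 -0.31, adjusted p = 0.0186), which ended without any one of WT 0 h replicates 1, 2 and 3 or WT 36 h replicates 2 and 3 (adjusted p = 0.0539 to 0.103).

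The mRNAs of ATP synthase, MT-ATP6 and MT-ATP8, were higher at 36 h than at 0 h in WT cells. MT-ATP6 had 622, 616 and 596 CPM in KO libraries at 36 h and 625, 575 and 695 CPM at 0 h (log2 -0.05, adjusted p = 0.737). For WT libraries the levels were 728, 775 and 785 CPM at 36 h and 551, 506 and 558 CPM at 0 h (log2 0.50, adjusted p = 3.05e-05). At 36 h KO libraries lay below WT libraries without overlap (log2 -0.32, SE 0.0908, adjusted p = 0.0153), a call that ended without KO 36 h replicate 3 or WT 36 h replicate 2 or 3 (adjusted p = 0.0700 to 0.0884). MT-ATP8 rose in WT cells (log2 0.43, adjusted p = 0.0103), which ended without WT 0 h replicate 2 or WT 36 h replicate 3 (adjusted p = 0.0639 to 0.113). At earlier times MT-ATP6 was higher in WT cells at 24 h (log2 0.45), a call that held without each library. The other earlier mRNA calls were MT-CO3 lower in KO cells at 24 h (-0.28), and, higher in WT cells, MT-CO1 (0.24) and MT-ND4 (0.28) at 6 h, MT-ND6 (0.42) at 12 h and MT-CO1 (0.27) at 24 h, each of which ended without 3 to 6 of the libraries compared.

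The tRNAs were counted thinly. All 22 together had 225 to 1179 counts in a library (median 692), and a count of 0 allows up to 3 counts, so single tRNAs at a few counts carry little precision. Mature tRNAs are short and heavily modified, and whether these reads came from mature tRNAs or from precursors was not tested. The MT-TI and MT-TQ genes overlap by 3 bases on opposite strands, and no strand setting of the counting was given in the sources used here. Reads of a minus-strand gene therefore cannot be told apart from reads of plus-strand RNA, precursor or cut, over the same bases.

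The mean summed level of plus-strand tRNAs was lower at every later time than at 0 h in both genotypes. In KO cells the sum averaged 23.1, 14.6, 14.1, 15.8 and 11.7 CPM at 0, 6, 12, 24 and 36 h, and in WT cells 26.9, 18.4, 16.8, 16.4 and 17.1 CPM. The sum of minus-strand tRNAs averaged 18.7, 19.6, 16.5, 19.9 and 26.8 CPM in KO cells and 18.4, 19.6, 18.3, 15.8 and 21.5 CPM in WT cells. At 36 h the plus-strand sum was 11.4, 13.2 and 10.5 CPM in KO libraries and 18.4, 15.7 and 17.3 CPM in WT libraries, and the groups did not overlap. The ratio of the minus-strand to the plus-strand sum averaged 0.811, 1.34, 1.18, 1.26 and 2.30 in KO cells, and 0.685, 1.07, 1.09, 0.961 and 1.25 in WT cells. At 36 h it was 2.14, 2.15 and 2.6 in KO libraries, above the 1.28, 1.32 and 1.16 of WT libraries. The sums do not describe every gene of a strand. MT-TS1, whose gene (chrM:7446-7514) starts at the base after MT-CO1, gave a large part of the minus-strand sum. It had 7.22 to 13.2 CPM over the 30 libraries, and the origin of its reads was not tested. In KO cells at 36 h against 0 h, 4 of the 8 minus-strand tRNAs had a log2 above 0. The 3 called higher are neighbours, given below, and the minus-strand mRNA MT-ND6 was not called.

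**Figure D4:**
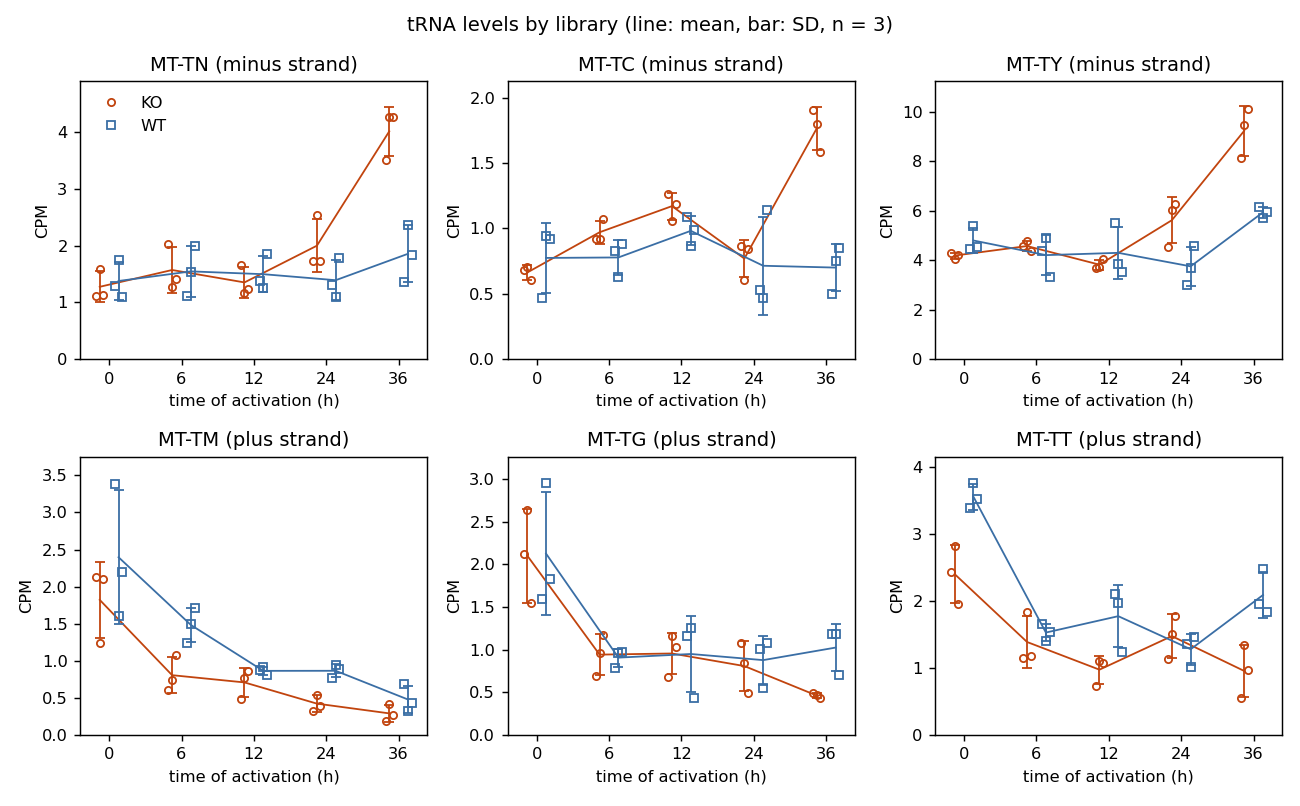
Levels (CPM) of 3 minus-strand tRNAs (MT-TN, MT-TC, MT-TY) and 3 plus-strand tRNAs (MT-TM, MT-TG, MT-TT) by time of activation (h) in KO (circles) and WT (squares) libraries; lines join group means and bars are SD (n = 3). At 36 h MT-TN has 3.51 to 4.27 CPM in KO libraries and 1.36 to 2.37 CPM in WT libraries.

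MT-TN, MT-TC and MT-TY, the neighbouring minus-strand genes shown above, rose in KO cells at 36 h. MT-TN had 3.51, 4.27 and 4.26 CPM in KO libraries at 36 h and 1.11, 1.59 and 1.13 CPM at 0 h (log2 1.72, SE 0.323, adjusted p = 4.93e-05). MT-TY had 8.12, 9.46 and 10.1 CPM at 36 h and 4.29, 4.05 and 4.21 CPM at 0 h (log2 1.14, SE 0.203, adjusted p = 2.43e-05). MT-TC had 1.91, 1.80 and 1.59 CPM at 36 h and 0.680, 0.705 and 0.601 CPM at 0 h (log2 1.42, SE 0.391, adjusted p = 0.00386), from 107 counts at 36 h and 36 counts at 0 h over the 3 libraries. None of the 3 groups of KO libraries overlapped between the times, and these calls held without each library, while that of MT-TC ended with no filter on low counts (adjusted p = 0.0642). Of the 8 tested minus-strand tRNAs, these 3 were called in KO cells at 36 h, all higher (36.7% of all tested symbols called, 18.6% higher). In WT cells 1, MT-TP, was called, lower (log2 -1.45, adjusted p = 0.0310), where 39.1% of all tested symbols were called (19.0% lower). The MT-TP call ended without WT 0 h replicate 1 or WT 36 h replicate 1 or 3 (adjusted p = 0.0770 to 0.182).

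At 36 h the same 3 tRNAs were higher in KO than in WT cells. MT-TN had a log2 fold change of 1.15 (SE 0.307, adjusted p = 0.00950), against 1.36, 2.37 and 1.84 CPM in WT libraries. MT-TC had 1.34 (SE 0.384, adjusted p = 0.0163), against 0.499, 0.753 and 0.848 CPM, and MT-TY 0.64 (SE 0.196, adjusted p = 0.0258), against 6.16, 5.70 and 5.94 CPM. KO and WT libraries did not overlap for any of them, but this held for 19 of the 36 tested members at 36 h, where 10 were called. The MT-TN call ended without WT 36 h replicate 1 (adjusted p = 0.0806), the MT-TC call without KO 36 h replicate 1 or WT 36 h replicate 1 (adjusted p = 0.0558 to 0.112), and the MT-TY call without KO 36 h replicate 2 or 3 or any WT 36 h replicate (adjusted p = 0.0623 to 0.122). The joint test over the time course called none of the 21 tested tRNAs, against 9.84% of all tested symbols. MT-TS1, MT-TA, MT-TE and MT-TQ were not called in any comparison. MT-TS1 averaged 9.33 CPM in KO cells and 10.6 CPM in WT cells at 36 h, and MT-TA, MT-TE and MT-TQ stayed between 0 and 1.48 CPM in every library.

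Of the 13 tested plus-strand tRNAs, 6 were called lower in KO cells and 5 in WT cells at 36 h, against 18.0 and 19.0% of all tested symbols called lower. Their median log2 fold changes were -1.03 in KO cells and -0.77 in WT cells. MT-TM, the only mitochondrial tRNA for methionine, had 0.185, 0.411 and 0.271 CPM in KO libraries at 36 h and 2.13, 1.23 and 2.10 CPM at 0 h (log2 -2.67, SE 0.425, adjusted p = 4.01e-06). In WT libraries it had 0.680, 0.323 and 0.424 CPM at 36 h and 3.38, 1.61 and 2.20 CPM at 0 h (log2 -2.29, SE 0.402, adjusted p = 1.88e-05). It was called lower at each later time in both genotypes except in WT cells at 6 h, where it averaged 1.48 CPM, against 2.40 CPM at 0 h (log2 -0.73, adjusted p = 0.155). There were KO log2 fold changes of -1.23, -1.42 and -2.16 at 6, 12 and 24 h, and WT ones of -1.50 and -1.51 at 12 and 24 h. MT-TM rests on 18 counts in KO cells and 27 in WT cells over the 3 libraries at 36 h. The KO 6 h call ended without KO 0 h replicate 1 or 3 or KO 6 h replicate 1 or 2 (adjusted p = 0.0501 to 0.0798).

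MT-TG had 0.492, 0.463 and 0.426 CPM in KO libraries at 36 h and 2.13, 2.64 and 1.54 CPM at 0 h (log2 -2.14, SE 0.435, adjusted p = 0.000152). In WT libraries it had 1.18, 1.18 and 0.707 CPM at 36 h and 1.59, 2.95 and 1.83 CPM at 0 h (log2 -1.02, adjusted p = 0.0467). The KO and WT libraries at 36 h did not overlap, but the difference missed the threshold (log2 -1.13, adjusted p = 0.0949). The WT call ended without WT 0 h replicate 2 or 3 or any WT 36 h replicate (adjusted p = 0.0641 to 0.208). Earlier MT-TG calls, lower in both genotypes at 6, 12 and 24 h, each ended without 1 to 5 of the libraries compared. MT-TR, for arginine, changed by a log2 of -2.09 in KO cells (adjusted p = 0.000141) and -1.35 in WT cells (adjusted p = 0.00652) at 36 h.

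MT-TT had 0.554, 1.34 and 0.968 CPM in KO libraries at 36 h, below the 1.95, 2.48 and 1.84 CPM in WT libraries (log2 -1.09, SE 0.328, adjusted p = 0.0221). It fell in KO cells at 12 h (log2 -1.26) and 36 h (-1.28, adjusted p = 0.00214) and in WT cells at 6 h (-1.21), 12 h (-1.0), 24 h (-1.46) and 36 h (-0.78, adjusted p = 0.0433). The KO calls held without each library, as did the WT calls at 6 and 24 h. The difference at 36 h ended without KO 36 h replicate 1 or 3 or WT 36 h replicate 2 (adjusted p = 0.0725 to 0.144), the WT 12 h call without WT 12 h replicate 3 (adjusted p = 0.0868), and the WT 36 h call without any 1 of the 6 libraries (adjusted p = 0.0509 to 0.147). MT-TI, for isoleucine, had 50, 13, 11, 13 and 12 counts over 3 KO libraries at 0, 6, 12, 24 and 36 h. Its log2 fold changes against 0 h in KO cells were -2.28, -2.40, -2.04 and -2.32, and the 24 h call ended without KO 0 h replicate 1 or 2 or KO 24 h replicate 1 or 3 (adjusted p = 0.0527 to 0.0745).

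Averaged over the 5 times, 5 of the 13 tested plus-strand tRNAs and none of the 8 minus-strand ones were lower in KO than in WT cells. Over all tested symbols 15.3% were called lower in that comparison. MT-TS2, for serine, was lower by a log2 of -1.06 (SE 0.232, adjusted p = 0.000615), with 0.565, 0.320, 0.183, 0.236 and 0.379 CPM in KO cells and 0.995, 0.668, 0.530, 0.521 and 0.716 CPM in WT cells at 0, 6, 12, 24 and 36 h. MT-TM (-0.67), MT-TT (-0.50), MT-TI (-0.88) and MT-TF (-0.55) were the others. In the fits of 0 to 24 h libraries the averaged calls of MT-TT, MT-TI and MT-TF ended (adjusted p = 0.108 to 0.116 with a replicate block and 0.0683 to 0.0782 without one). The MT-TI call ended without WT 36 h replicate 1 (adjusted p = 0.0627), and the MT-TF call without any 1 of 12 of the 30 libraries (adjusted p = 0.0510 to 0.0702). With no filter on low counts, the averaged calls of these 4 ended (adjusted p = 0.0637 to 0.249) and that of MT-TS2 held, and in WT cells at 36 h those of MT-TD, MT-TG, MT-TP, MT-TR and MT-TT ended (0.0501 to 0.260). MT-TD, MT-TH, MT-TV and MT-TL1 were each called lower in at least 1 time comparison, each time losing the call without 2 to 4 of the libraries compared. MT-TS2 was also lower in KO cells at 12 h (-1.68, lost without KO 0 h replicate 3 or KO 12 h replicate 1 or 3) and MT-TF in WT cells at 12 h (-1.47, lost with no filter on low counts). MT-TK and MT-TL2 were called in no comparison.

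Nuclear copies of mitochondrial genes could take reads from the members, or lend reads to them. The files hold 188 such symbols, of which 43 passed the filter, and their summed counts were 0.244 to 0.401% of the mitochondrial counts (median 0.278%). MTRNR2L12, a copy of the MT-RNR2 gene, averaged 11.2 CPM in KO cells and 32.3 CPM in WT cells at 36 h (log2 -1.54, adjusted p = 0.00108), but WT 36 h replicate 1 alone had 58.0 CPM. MTRNR2L2, a second copy, averaged 7.81 and 13.5 CPM in KO and WT cells (log2 -0.79, adjusted p = 0.00112). The levels of these 2 copies lie far below those of MT-RNR2. MTATP6P1, a copy of MT-ATP6, averaged 70.6 CPM in KO cells at 36 h and 66.1 CPM at 0 h (log2 0.08, adjusted p = 0.595). In WT cells it averaged 82.5 CPM at 36 h and 55.5 CPM at 0 h (log2 0.56, adjusted p = 5.95e-05), so it was called higher there, as MT-ATP6 was. MTND2P28, a copy of MT-ND2, was called lower in KO cells at 6 h (log2 -0.57, adjusted p = 0.000587) and 12 h (-0.79, adjusted p = 6.94e-06), the times at which MT-ND2 was. How the counting split reads between such a copy and its mitochondrial gene was not tested.

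The nuclear genes that serve mitochondrial gene expression and respiration were counted by lists, which cover only genes present in the files under the symbols used. In KO cells at 36 h, 12 of 83 tested subunits of the respiratory complexes and ATP synthase were called higher and 16 lower. In WT cells 4 were called higher and 44 lower. Mitoribosomal proteins gave 11 higher and 12 lower of 76 in KO cells, and 6 higher and 50 lower in WT cells. The median log2 fold changes were -0.02 and -0.08 for these lists in KO cells and -0.34 and -0.40 in WT cells, against 0.04 and 0.01 for all tested symbols. Over all tested symbols, 36.7% were called in KO cells and 39.1% in WT cells at 36 h. These 2 lists stood above that share in WT cells and below it in KO cells. The joint test of the time courses called 4 of the 83 subunits and 8 of the 76 mitoribosomal proteins, against 9.84% of all tested symbols. At rest, the median log2 fold changes of KO over WT were already -0.14 and -0.16 for these lists, against -0.00529 for all tested symbols.

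**Figure D5:**
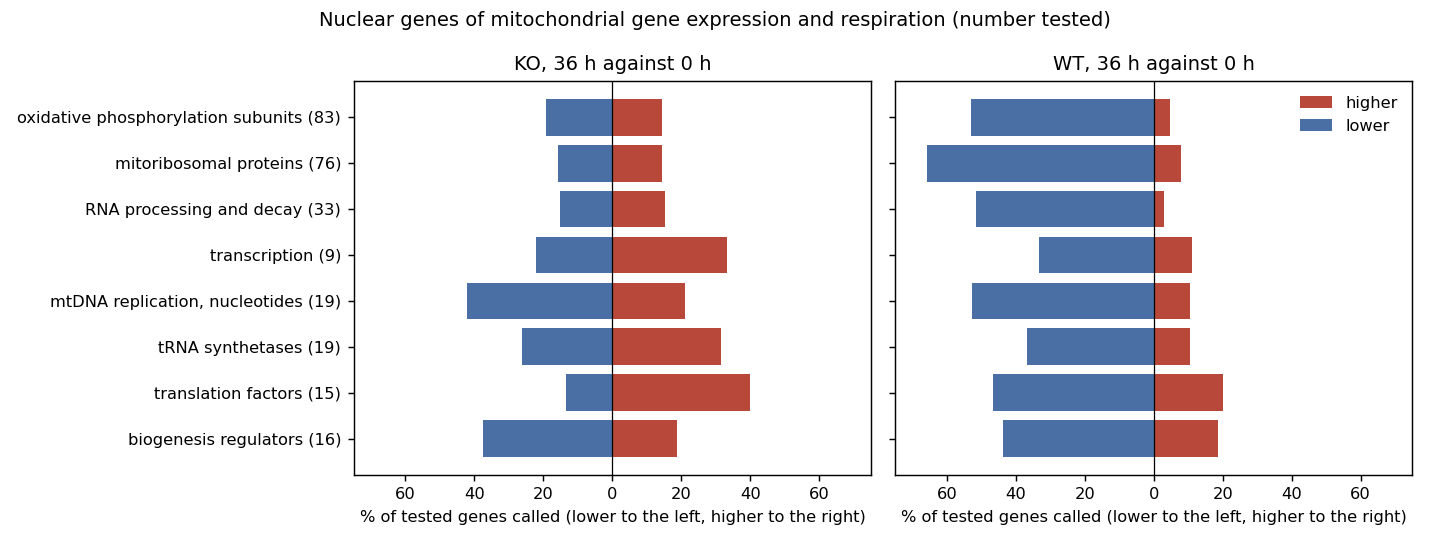
Percent of tested genes of 8 nuclear lists called higher (right) or lower (left) at 36 h against 0 h, in KO cells and in WT cells, with the number tested beside each name. Of the 76 mitoribosomal proteins 12 are called lower in KO cells and 50 in WT cells, against 18.0 and 19.0% of all tested symbols.

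Directly between the genotypes at 36 h, 7 of 83 subunits of the complexes were higher and 0 lower in KO than in WT cells. Mitoribosomal proteins had 12 higher and 1 lower of 76, with a median of 0.22. Over all tested symbols 13.5% were called in this comparison (6.95% higher and 6.52% lower). Without one of KO 36 h replicate 1 or 3 or WT 36 h replicate 2 or 3, the mitoribosomal count was 4 to 8 in all, and without KO 36 h replicate 1 or WT 36 h replicate 2 or 3 the count for the complexes was 4. At rest, 1 mitoribosomal protein was higher and 2 lower, against 6.07% of all tested symbols called. MRPL39, a protein of the large mitoribosomal subunit, led the rises: it averaged 651 ± 92.2 CPM in KO cells and 277 ± 38.3 CPM in WT cells at 36 h (SD, n = 3 each, log2 1.23, adjusted p = 1.95e-06). At 0 h it averaged 134 CPM in KO cells and 158 CPM in WT cells. MRPS6, of the small subunit, rose in both genotypes at 36 h (log2 0.82 in KO cells and 1.60 in WT cells). MRPL42 (-1.03 and -0.76) and MRPL48 (-1.0 and -1.31) fell in both, and MRPL16 was lower in KO cells averaged over the times (-0.39). Among the complexes, UQCRC1 of complex III fell by -0.62 in both KO and WT cells, SDHB of complex II fell by -0.40 in KO cells and -0.72 in WT cells, and ATP5G3 of ATP synthase rose by 0.48 in KO cells. Averaged over the times, NDUFS5 was lower (-0.32) and ATP5D higher (0.98) in KO cells.

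Transcription of mitochondrial DNA needs the polymerase POLRMT with its partners TFAM and TFB2M. POLRMT rose in both genotypes, with 42.6 ± 14.9 CPM in KO cells and 23.0 ± 10.7 CPM in WT cells at 36 h, and 19.3 ± 2.36 CPM in KO cells and 14.5 ± 1.98 CPM in WT cells at 0 h (SD, n = 3 each). Its log2 fold change at 36 h was 1.14 in KO cells (adjusted p = 0.000254) and 0.67 in WT cells (adjusted p = 0.0289), and KO cells were higher than WT cells at 36 h (0.90, adjusted p = 0.00919). The libraries overlapped in the last 2 of these comparisons, and the difference between genotypes lost its call without KO 36 h replicate 3 or WT 36 h replicate 1. TFAM, which also packs the DNA, had a log2 fold change of -0.17 in KO cells (adjusted p = 0.274) and fell in WT cells (-0.60, adjusted p = 7.65e-05). TFB2M rose in KO cells (0.43, adjusted p = 0.0199) and was at -0.26 in WT cells (adjusted p = 0.173). TEFM, the elongation factor, fell in both (-0.46 and -0.41). MTERFD1 fell in both (-0.39 and -0.86), TFB1M rose in KO cells (0.46), and MTERF was higher in KO cells averaged over the times (0.33). Of the 9 transcription genes, 3 were called higher and 2 lower in KO cells at 36 h (36.7% of all tested symbols called). In WT cells 1 was higher and 3 lower (39.1% of all). The KO count was 2 without KO 0 h replicate 2 and 3 without KO 36 h replicate 1, and the WT count was 2 without WT 36 h replicate 3.

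Genes that cut, modify and break down mitochondrial RNA gave 5 higher and 5 lower of 33 in KO cells at 36 h (36.7% of all tested symbols called). In WT cells they gave 1 higher and 17 lower (39.1% of all). LRPPRC, which keeps mitochondrial mRNAs stable, had -0.09 in KO cells (adjusted p = 0.595) and fell by -0.45 in WT cells (adjusted p = 0.00258). PNPT1, the exonuclease that degrades mitochondrial RNA, was at 0.02 in KO cells and fell by -0.65 in WT cells, and was higher in KO than in WT cells at 36 h (147 and 106 CPM, log2 0.47, adjusted p = 0.00642). REXO2, which clears the short fragments left, rose in KO cells (0.60, adjusted p = 2.72e-05) and was higher in KO than in WT cells at 36 h (123 and 84.5 CPM, log2 0.54, adjusted p = 0.000585). FASTK rose in both genotypes (0.59 and 0.82), TRMU, a tRNA-modifying enzyme, fell in both (-0.57 and -0.64), and the methyltransferase gene FTSJ2 fell in WT cells (-0.76). At 36 h 5 of the 33 genes of this list were higher and 0 lower in KO than in WT cells, against 13.5% of all tested symbols called (6.95% higher), a count of 2 without KO 36 h replicate 1 or 3 or WT 36 h replicate 2 or 3.

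Replication of mitochondrial DNA and its nucleotide supply had 4 genes higher and 8 lower of 19 in KO cells at 36 h (36.7% of all tested symbols called). In WT cells 2 were higher and 10 lower (39.1% of all). TK2, the mitochondrial thymidine kinase, fell in WT cells (log2 -1.15, adjusted p = 4.68e-09) and was higher in KO than in WT cells at 36 h (35.1 and 19.96 CPM, log2 0.80, adjusted p = 2.78e-05). MGME1, a nuclease (-0.75 and -1.25), DNA2 (-1.85 and -1.35) and TOP3A (-0.81 and -0.56) fell in both KO and WT cells. Averaged over the times, TOP1MT was higher (0.36) and SLC25A4 lower (-0.30) in KO cells.

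Mitochondrial tRNA synthetases had 6 higher and 5 lower of 19 in KO cells at 36 h (36.7% of all tested symbols called). In WT cells 2 were higher and 7 lower (39.1% of all). The KO count was 7 without KO 0 h replicate 3 or KO 36 h replicate 3. CARS2 (0.98 and 1.00) and TARS2 (0.81 and 0.63) rose and SARS2 (-0.77 and -0.38) fell in both KO and WT cells, and KARS (0.22) and VARS2 (0.34) were higher in KO cells averaged over the times. Translation factors had 6 higher and 2 lower of 15 in KO cells (36.7% of all) and 3 higher and 7 lower in WT cells (39.1%). OXA1L (0.56 and 0.55) rose and MTRF1 (-0.72 and -0.87) fell in both, TSFM fell in WT cells (-0.82), and TACO1 (0.37) was higher and GFM2 (-0.18) lower in KO cells averaged over the times. Regulators of mitochondrial biogenesis had 3 higher and 6 lower of 16 in KO cells (36.7% of all), and 3 higher and 7 lower in WT cells (39.1%). The KO count was 5 without KO 36 h replicate 2. GABPB2 (-1.71 and -1.64) and GABPB1 (-0.95 and -0.97), which encode partners of the GABP transcription factor, fell in both, and PPRC1 was higher in KO cells averaged over the times (0.44).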

How the data were processed

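The authors deposited 1 table of expected counts per gene symbol for each of 30 libraries; 0.177% of values were not whole, and these were rounded. Adapter trimming with cutadapt, alignment with STAR and DESeq2 are named by the submitters' processing notes, with GRCh37/hg19 as the build; which program counted the reads, on which annotation and with which strand setting was not given in the sources used here. Members were matched by symbol, and their positions, strands, lengths and sequences come from GENCODE 29 on GRCh38. Counts were fitted with edgeR 4.0.16 in R 4.3.3: TMM factors, filterByExpr with a minimum count of 10 (21554 symbols tested), 10 group means over all 30 libraries, the quasi-likelihood test and Benjamini-Hochberg adjustment over all tested symbols, called at an adjusted p under 0.05. SE is the absolute log2 fold change divided by the square root of F. Levels are CPM on TMM-scaled library sizes. The fit was tested on simulated data with known changes. Alternatives were DESeq2 1.42.0, no filter, library sizes without mitochondrial symbols, fits on 6 libraries, a replicate block, the 0 to 24 h libraries alone, and each library left out.

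The members and the nuclear lists were chosen with earlier results of these data known. Text names every member, and from each nuclear list the 2 called genes of at least 10 CPM with the smallest p in KO cells at 36 h, in WT cells at 36 h and in KO against WT averaged over the times; POLRMT, TFAM, TFB2M, TEFM, LRPPRC and SLAMF6 were always named. A gene that this rule names is not reported here. Nuclear copies were matched by their symbols. No 2 libraries of a group agreed within sampling noise. Counting error is the only error the depths above describe.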

Additional observations from a re-analysis of the deposited data

Results flagged for a closer look

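For 9 of the 36 tested members the changes from 0 h differed between KO and WT cells, against 9.84% of all tested symbols. The test was the joint one over the 4 later times (edgeR's quasi-likelihood test, Benjamini-Hochberg adjustment over all tested symbols). The adjusted p was 1.35e-05 for MT-RNR2, 0.000100 for MT-ND5, 0.00106 for MT-RNR1, 0.0117 for MT-ATP6, 0.0172 for MT-CO1, 0.0187 for MT-CYB, 0.0325 for MT-ND6, 0.0383 for MT-ND1 and 0.0449 for MT-ND4. MT-RNR2 had log2 fold changes at 36 h of -0.80 in KO cells and 0.58 in WT cells, and MT-ND5 of -0.43 and 0.64. MT-RNR1 had -1.16 and 0.29, and MT-ATP6 -0.05 and 0.50. With all 36 h libraries left out, edgeR called none of the 9 (8 of the 36 members had an unadjusted p under 0.05). The share of all tested symbols called in that fit is not given here. The calls for MT-RNR2, MT-ND5, MT-RNR1 and MT-CYB held without each single library. That for MT-ATP6 ended without KO 0 h replicate 3 or KO 36 h replicate 3 (adjusted p = 0.0511 to 0.0531), and that for MT-CO1 without KO 0 h replicate 1 or 3, KO 36 h replicate 1 or 3, WT 0 h replicate 1 or 2 or WT 36 h replicate 3 (adjusted p = 0.0553 to 0.101). The calls for MT-ND1, MT-ND6 and MT-ND4 ended without any 1 of 10, 12 and 21 of the 30 libraries.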

How the results depend on the processing

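Each combination of a member, a comparison and an alternative fit was read as 1 result, also where the member was never called. Under the alternatives that keep all libraries of a comparison, 2305 such results kept their status as called or not called. A further 43 gained a call and 93 lost one. With 1 library left out the numbers were 4685, 31 and 252. No called member changed sign. The calls that held without each library were counted at 6, 12, 24 and 36 h. KO cells kept 4 of 8, 6 of 9, 1 of 7 and 12 of 17. WT cells kept 1 of 4, 2 of 7, 7 of 11 and 8 of 16. For KO against WT they were 1 of 5 at 0 h, 1 of 2 at 6 h and 0 of 1 at 12 h. At 24 h 0 of 2 held, and at 36 h 2 of 10 (both rRNAs). Averaged over the times 7 of 11 held, and in the joint test 4 of 9. Under every alternative, including the fit without the 36 h libraries, 0 of the 9 joint calls held.

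Members called moved by over 1.5 times as follows. With no filter, the count was 4, not 8, in KO cells at 6 h, 5, not 9, at 12 h and 3, not 7, at 24 h; for KO against WT it was 4, not 2, at 24 h, 3, not 10, at 36 h and 7, not 11, averaged. With library sizes free of mitochondrial symbols it was 2, not 4, in WT cells at 6 h, 3, not 5, for KO against WT at 0 h and 5, not 9, in the joint test. With only the 6 libraries compared it was 8 in WT cells at 6 h, and for KO against WT 9 at 0 h, 3, not 1, at 12 h and 0 at 24 h, where 5 members had an unadjusted p under 0.05 and edgeR on all libraries called 2. DESeq2 called 2 members at 12 h. The cause was not tested.

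Same-numbered WT and KO libraries had weakly correlated deviations from their group means, at -0.0150 to 0.126, with 1 of 12 pairs above the 0.1 required for pairing. In 9 of 12, however, a WT library correlated best with the KO library of its own number, out of 3 at that time. The main fit did not pair libraries by number, and the labels do not say what the numbers stand for. With the replicate block over 0 to 24 h, members called for KO against WT were 3 at 12 h and 7 averaged; without the block over the same libraries, an alternative chosen after seeing the data, they were 3 at 0 h and 6 averaged. The averaged call for MT-RNR2 was lost in both (adjusted p = 0.446 and 0.592), as was that for MT-RNR1 (0.749 and 0.851). The joint test over 6, 12 and 24 h on those libraries, also chosen after seeing the data, called 0 members with edgeR, not 9, and 8 had an unadjusted p under 0.05. Its share over all tested symbols is not given here.

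Leaving out 1 library in turn, members called in KO cells ranged over 4 to 8, 6 to 8, 3 to 7 and 12 to 17 at 6, 12, 24 and 36 h, and in WT cells over 1 to 2, 4 to 9, 7 to 11 and 10 to 14. For KO against WT they ranged over 1 to 6 at 0 h, 1 to 2 at 6 h, 1 to 1 at 12 h, 1 to 3 at 24 h and 6 to 9 at 36 h, 9 to 11 averaged and 4 to 10 in the joint test. The averaged MT-RNR1 call was lost without any 1 of 16 libraries (adjusted p = 0.0519 to 0.101), and that of MT-ND5 without KO 0 h replicate 3 or WT 12 h replicate 2 (0.0572 to 0.0771). Mean mitochondrial shares ranged over 7.46 to 7.79, 6.38 to 7.54, 6.77 to 7.57, 6.74 to 7.22 and 4.56 to 5.11% in KO cells at 0, 6, 12, 24 and 36 h, and over 5.96 to 5.99, 6.99 to 7.55, 7.73 to 8.25, 8.22 to 8.81 and 8.59 to 9.21% in WT cells. The median of all tested symbols was 0.116 on the log2 scale for WT cells at 12 h (0.339 with no filter), and for KO against WT it was -0.195 at 12 h with no filter. Depth limits single tRNAs most.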
